A study of Homo sapiens with 12 samples.

Results

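The interferon gamma (IFN-γ) response of SDC3-knockout macrophages was read from 6 of the 12 RNA sequencing libraries of the series, 3 of knockout cells that had received IFN-γ and 3 of knockout cells that had not, over every gene that passed a count filter. The cells were THP-1, a human monocytic leukaemia line. Those of these 6 libraries had been edited with CRISPR/Cas9 at SDC3, the gene of syndecan-3, a cell-surface proteoglycan with heparan sulphate chains, and made macrophage-like with 20 ng/ml of the phorbol ester PMA for 24 h. After a change of medium, recombinant human IFN-γ was added on the following day to 1 of the groups, so the edit and the PMA were common to both groups and only the cytokine differed. The labels gave neither the dose nor the duration of IFN-γ, and did not say how many edited lines or clones were used. The other 6 libraries, wild-type THP-1 cells with the same PMA treatment and with or without IFN-γ, served only to show where the knockout response differed. Whether the 3 libraries of a group were grown as separate cultures is not in the labels. The p-values therefore rest on the spread among these samples alone, and that spread may be technical.

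IFN-γ binds a receptor made of IFNGR1 and IFNGR2 chains, to which the kinases JAK1 and JAK2 are attached. Signalling through them leads to binding of GAS elements in the promoters of a first wave of genes. That wave includes the transcription factor IRF1, which binds ISRE elements in a second wave. In macrophages the programme is known for antigen presentation, for guanylate-binding proteins that attack intracellular pathogens, for chemokines that attract T cells and for growth arrest.

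The genes with the largest increases included 3 chemokines that lie side by side on chromosome 4, CXCL9, CXCL10 and CXCL11. Their promoters, with those of IRF1 and of the guanylate-binding protein gene GBP4, are shown because the elements named above can be read in them. The sequences are from RefSeq (GRCh38.p14), each 300 bases long, from 250 bases before to 50 bases after the gene's start, all on the minus strand and printed 5′ to 3′. The coordinates are chr4:76007460-76007759 for CXCL9, chr4:76023448-76023747 for CXCL10, chr4:76036021-76036320 for CXCL11, chr5:132490724-132491023 for IRF1 and chr1:89198893-89199192 for GBP4. Capitals mark matches to TTCNNNGAA (GAS) or to GAAA, any 2 bases and GAAA again (ISRE), both searched on both strands with overlaps allowed.
CXCL9: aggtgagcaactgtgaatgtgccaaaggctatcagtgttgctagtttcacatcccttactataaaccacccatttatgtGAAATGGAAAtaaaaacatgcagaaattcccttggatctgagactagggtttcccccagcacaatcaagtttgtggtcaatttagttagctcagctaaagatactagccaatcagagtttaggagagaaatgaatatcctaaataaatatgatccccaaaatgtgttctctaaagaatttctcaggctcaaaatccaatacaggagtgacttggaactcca
CXCL10: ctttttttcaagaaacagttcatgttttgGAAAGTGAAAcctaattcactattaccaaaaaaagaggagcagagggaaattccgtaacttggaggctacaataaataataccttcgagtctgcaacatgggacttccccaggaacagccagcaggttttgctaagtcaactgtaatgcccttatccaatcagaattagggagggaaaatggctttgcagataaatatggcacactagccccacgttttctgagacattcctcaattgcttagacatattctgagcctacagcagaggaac
CXCL11: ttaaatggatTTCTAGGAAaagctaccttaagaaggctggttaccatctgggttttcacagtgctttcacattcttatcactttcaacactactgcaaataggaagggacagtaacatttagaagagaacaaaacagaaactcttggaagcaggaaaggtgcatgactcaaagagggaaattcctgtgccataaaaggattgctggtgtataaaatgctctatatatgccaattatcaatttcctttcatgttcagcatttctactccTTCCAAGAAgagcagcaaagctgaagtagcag
IRF1: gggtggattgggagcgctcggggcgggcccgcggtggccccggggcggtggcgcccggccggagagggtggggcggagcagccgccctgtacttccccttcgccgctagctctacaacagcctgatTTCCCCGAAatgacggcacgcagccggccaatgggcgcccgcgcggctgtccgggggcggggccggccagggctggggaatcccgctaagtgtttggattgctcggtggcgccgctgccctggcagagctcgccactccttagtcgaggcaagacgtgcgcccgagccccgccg
GBP4: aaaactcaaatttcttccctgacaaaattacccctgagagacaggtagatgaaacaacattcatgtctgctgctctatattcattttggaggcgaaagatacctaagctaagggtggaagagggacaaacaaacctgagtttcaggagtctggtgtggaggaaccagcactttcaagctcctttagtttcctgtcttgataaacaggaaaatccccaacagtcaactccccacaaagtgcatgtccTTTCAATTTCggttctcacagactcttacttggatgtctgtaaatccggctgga
CXCL9 and CXCL10 each held 1 ISRE match, GAAATGGAAA beginning 171 bases before the start of CXCL9 and GAAAGTGAAA beginning 221 bases before that of CXCL10. CXCL11 held 2 GAS matches, TTCTAGGAA at 240 bases before the start and TTCCAAGAA at 19 bases after it. The IRF1 promoter held the GAS match TTCCCCGAA at 124 bases before the start, and the GBP4 promoter an ISRE match read on the opposite strand, TTTCAATTTC, at 4 bases before it.

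Of the 17119 genes tested, 11561 had a promoter in that table. A GAS match was found in 7.88% and an ISRE match in 3.65% of all 27305 promoters, and in 6.4% and 2.91% of those of tested genes. Among the 957 promoters of genes that were higher with IFN-γ by at least 1 on the log2 scale, 8.57% held a GAS and 9.4% an ISRE match. Among the 191 that were higher by at least 3, the shares were 11.5% and 19.4%. Genes that were not called had 6.74% and 2.46% (3903 promoters), and genes lower by at least 1 had 5.28% and 1.54% (1230 promoters). The ISRE share was therefore higher in each larger class of increase and lowest in the genes that fell. A match is only a run of letters, and no test was made of these shares. GBP5, CIITA and APOL3 had no entry.

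The 6 knockout libraries held 25643841 to 29426415 assigned counts and 21529 to 23114 genes with a count. Levels are given as CPM, that is counts scaled to a common, TMM-adjusted library size, on which 3 counts are 0.115 to 0.122 CPM with IFN-γ and 0.0957 to 0.108 CPM without it. In the 10747 genes at 5 CPM or more on average over the knockout and wild-type groups, the first principal component of the 6 libraries separated the treatments. It held 97.1% of the variance, and the second held 0.848%. Mitochondrial genes had 0 counts in all libraries. The labelled cell type was checked with 14 macrophage and monocyte markers, which all passed the filter and summed to 6722 to 6964 CPM with IFN-γ and 6088 to 6314 CPM without it, with 9 higher and 3 lower (8 and 3, and 5 and 4, with the upper-quartile and unscaled alternatives). Among them CSF1R, the receptor for macrophage colony-stimulating factor, was at 1908, 1853 and 1831 CPM with IFN-γ and 1470.0, 1423 and 1424 CPM without it. CD68 had only 10 and 12 counts over the 3 libraries of each group, but 85.8% of its exon bases are shared with another gene and reads on shared bases are not assigned, so its level is uncertain.

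SDC3 (chromosome 1, 30869467 to 30908761, minus strand, hg38), the targeted gene, stayed transcribed in every knockout library and was itself raised by IFN-γ. It stood at 237, 237 and 244 CPM with IFN-γ and at 49.9, 48.2 and 43.9 CPM without it (2.34 on the log2 scale, SE 0.06, adjusted p = 2.4e-25, edgeR's quasi-likelihood test). In the wild type its mean was 580.2 against 230.0 CPM, so the knockout libraries were lower in both treatments. The position of the edit is not in the labels and counts run over all exons, so the protein cannot be judged from them.

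IFN-γ changed most of the transcriptome of the knockout cells, with large increases in a small set of genes. By edgeR's quasi-likelihood test with Benjamini-Hochberg adjustment (threshold 0.05, two-sided), 5005 genes were higher with IFN-γ (29.2%) and 5451 lower (31.8%), together 61.1% of the genes tested. At a change of at least 1 on the log2 scale these were 1455 (8.5%) and 1872 (10.9%). Of the 11026 genes at 5 CPM or more in a knockout group 73.4% were called, and of the protein-coding genes 67.7%. The counts of list members given below are to be read beside these shares. At least 3, an 8-fold change, was reached by 318 genes upward and 298 downward, and at least 5, a 32-fold change, by 112 and 43. The 318 genes took up 6.42% to 6.51% of all counts in the libraries with IFN-γ and 0.376% to 0.390% in those without it. The 298 genes took up 0.0232% to 0.0243% with IFN-γ and 0.466% to 0.474% without it. Without IFN-γ the falling genes held a slightly larger share than the rising ones, and with it a far smaller one. Both sets were picked by their change in these same libraries, so the direction of each shift was fixed by that choice. The plot of log2 fold change against mean level has the chemokines and guanylate-binding proteins at its upper right.

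**Figure D1:**
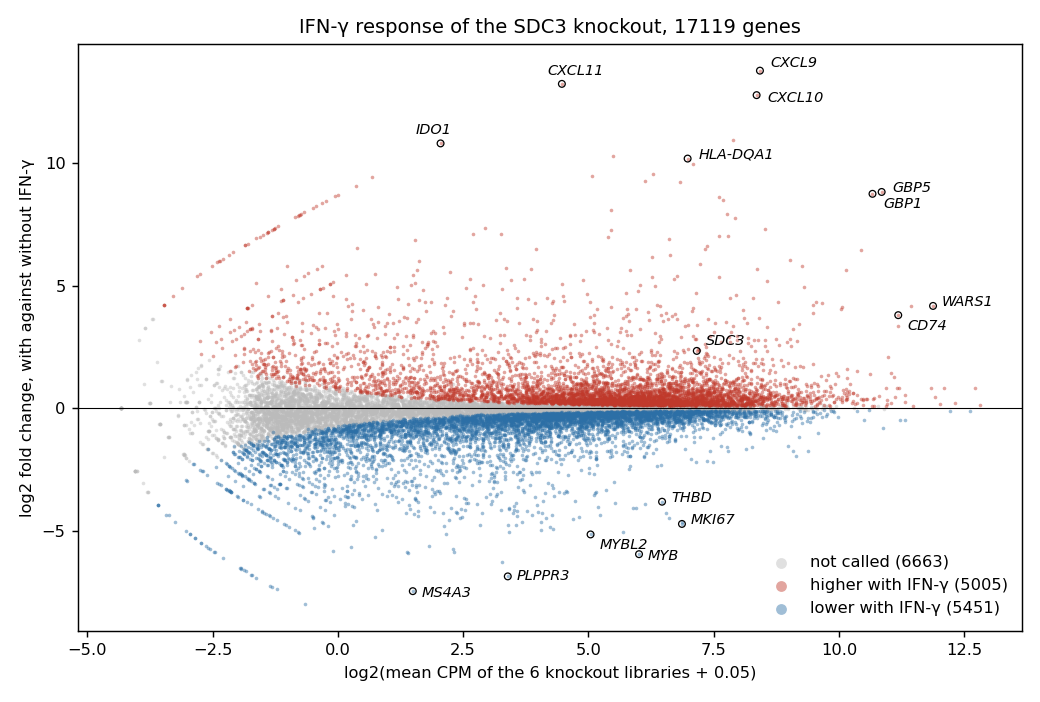
Each point is 1 of the 17119 genes tested, with its mean level over the 6 knockout libraries, as log2(CPM + 0.05), on the x axis and its log2 fold change with against without IFN-γ on the y axis. Red points are the 5005 genes called higher, blue points the 5451 called lower and grey points were not called; circled genes are named, and the fitted values of CXCL11 and IDO1, which had 0 counts without IFN-γ, are no bounds.

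The small changes depended on the scaling of the libraries. TMM factors were 0.880 to 0.889 with IFN-γ and 1.084 to 1.091 without it, and 47.9% of the calls were higher. With upper-quartile scaling 36.4% were higher (3928 higher, 6864 lower) and the median gene moved from -0.05 to -0.17. With library totals alone 23.4% were higher (2787 higher, 9141 lower), the median gene stood at -0.35, and 414 genes called higher became lower. Of the genes called lower, all 5451 were also lower with both of these scalings. Log2 changes smaller than these shifts are therefore to be read with that limit.

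The components of IFN-γ signalling mostly rose, with the exceptions of the receptor chain IFNGR1 and the kinases TYK2 and JAK1. Of 15 genes of the receptor and JAK-STAT list, 12 were higher and 2 lower (11 and 3 with upper-quartile scaling, 11 and 4 with library totals alone), with a median log2 fold change of 0.72 against -0.05 over all genes tested. IFNGR1, which binds the cytokine, was at 532, 551 and 539 CPM with IFN-γ and at 751, 769 and 805 CPM without it (-0.52 on the log2 scale, SE 0.04, adjusted p = 2.2e-12). All 3 treated libraries lay below all 3 untreated ones. IFNGR2, the accessory chain, was at 111, 114 and 112 and 81.6, 77.2 and 80.3 CPM (0.49 on the log2 scale, SE 0.05, adjusted p = 4.7e-11), above the untreated libraries in every case. JAK2 rose from 105, 105 and 109.7 to 731, 754 and 752 CPM (2.81 on the log2 scale, SE 0.05, adjusted p = 5.7e-30). JAK1 averaged 174 against 172 CPM and was not called (adjusted p = 0.8), but it was called lower with upper-quartile scaling (-0.105, adjusted p = 0.0259) and with library totals alone (-0.284, adjusted p = 2.6e-07). TYK2, a related kinase, fell by 0.25.

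STAT4, which in lymphocytes carries IL-12 signals, went from 3.78, 3.12 and 2.97 to 25.01, 28.02 and 22.4 CPM (2.94). STAT2 (1.74), STAT3 (1.70) and IRF9 (1.87), a DNA-binding subunit in type I interferon signalling, also rose. Among 16 brakes of the pathway, 9 were higher and 1 lower (median 0.21; 7 and 3 with upper-quartile scaling, 7 and 7 with library totals alone). SOCS1, which blocks the JAK kinases, went from 0.432, 0.446 and 0.0645 to 88.1, 86.04 and 85.5 CPM (8.10 on the log2 scale, SE 0.14, adjusted p = 7.6e-31). SOCS3, which acts on IL-6 family receptors, USP18, a brake on type I interferon receptors, and PTPN2, a phosphatase for JAK1, rose by 1.66, 2.99 and 1.61. The member that was lower, PIAS3, an inhibitor of STAT3, stood at -0.17 and its call was lost with DESeq2, with no low-count filter and without 4 of the 6 knockout libraries taken in turn.

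Of 12 IRF and BATF transcription factors, 9 were higher and none lower, with a median of 1.16. IRF1 (chromosome 5, 132481609 to 132490798, minus strand) was at 1419, 1444 and 1386 CPM with IFN-γ and at 70.01, 68.4 and 69.5 CPM without it (4.35 on the log2 scale, SE 0.04, adjusted p = 8.5e-38), a 20.4-fold increase. BATF2, an IRF1-associated factor of activated macrophages, rose from 6.05, 4.34 and 4.65 to 166, 152 and 149.9 CPM (4.97), and BATF3, known from cross-presenting dendritic cells, from 0.792, 0.574 and 0.323 to 22.4, 20.6 and 20.5 CPM (5.24). IRF7, an amplifier of type I interferon, rose by 3.42, and IRF8, a factor of the monocyte lineage, by 0.51 (75.1, 71.5 and 75.6 CPM without and 105, 108 and 103 CPM with IFN-γ). Among the members not called was IRF5, which averaged 102 against 101 CPM. Under upper-quartile scaling and with library totals alone, 9 of this list were higher and 1 lower.

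**Figure D2:**
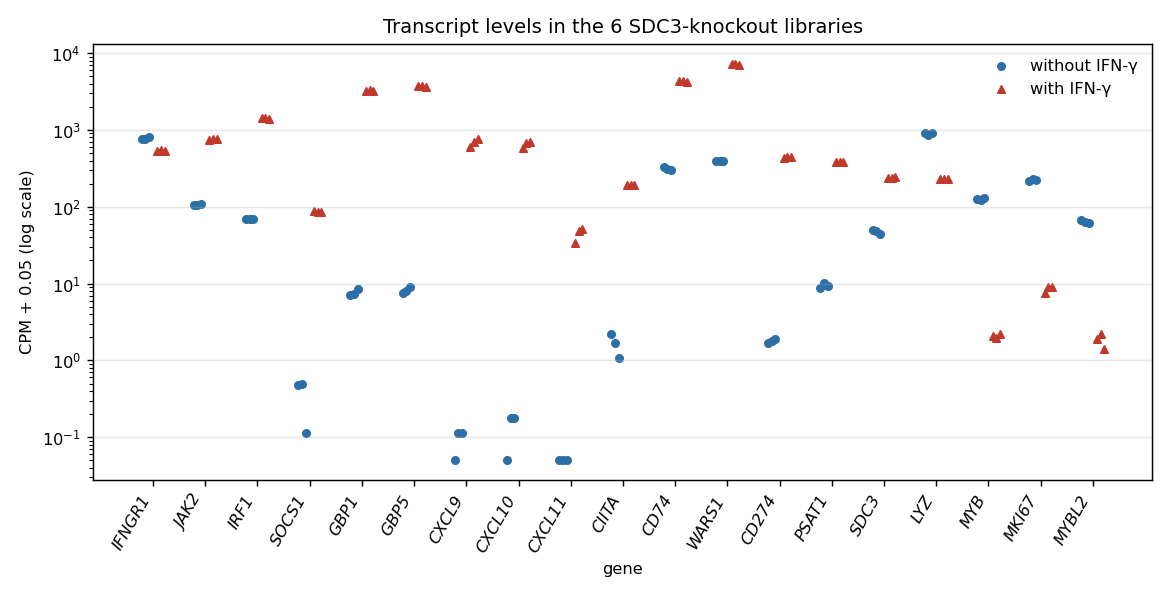
CPM + 0.05 on a log axis for 19 genes in each of the 6 knockout libraries, circles without and triangles with IFN-γ, 3 of each per gene. Except for IFNGR1, the signalling, chemokine, guanylate-binding protein and antigen presentation genes rose, CXCL11 was at 0 in every untreated library, and MYB, MKI67 and MYBL2 were below 10 CPM in every treated library.

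The chemokines that bind the receptor CXCR3 on activated T and NK cells went from almost no counts to a high level. CXCL9 was at 608, 694 and 756 CPM with IFN-γ and at 0, 0.0638 and 0.0645 CPM without it, 51854 against 4 counts (13.78 on the log2 scale, SE 0.16, adjusted p = 1.4e-35). CXCL10 was at 576, 686 and 704 CPM and at 0, 0.128 and 0.129 CPM (12.78 on the log2 scale, SE 0.17, adjusted p = 1.6e-33), 49484 against 8 counts. The third, CXCL11, reached 33.6, 47.8 and 51.4 CPM and had no count in the untreated libraries, at least 1333-fold higher with the untreated group set at a floor of 3 counts in all. Replicate 1 was the lowest of the 3 treated libraries for each of these genes. Since mates of a pair were counted separately, 2 counts can come from 1 fragment, and such bounds cover counting error only. In CPM per kilobase of exon, CXCL10 stood at 557 with IFN-γ, CXCL9 at 250.5 and CXCL11 at 23.2. The median of the 3 log2 fold changes was 13.24, the fitted value of CXCL11, and 12.78 with CXCL11 at its bound. With so few untreated counts, the SEs of CXCL9 and CXCL10 understate the error of their fold changes. The same holds for other genes near 0 without IFN-γ, among them SOCS1, APOL4, C1QB, HLA-DQA1 and VCAM1.

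Other inflammatory cytokines and chemokines did not move as a block. Of 25 listed, 16 could be tested, and 8 were higher and 5 lower (5 and 5 with both other scalings), with a median of -0.04. Over all genes tested 29.2% were higher and 31.8% lower. IL6 had 2 counts with and 0 without IFN-γ over the 3 libraries, and IL12B had 0 and 6. CCL8, an attractant of monocytes, had 76 counts with and 0 without IFN-γ, at least 30.3-fold higher. CCL2, the main monocyte chemokine, rose from 0.360, 0.638 and 0.194 to 3.16, 2.85 and 2.83 CPM (2.87 on the log2 scale, SE 0.24, adjusted p = 2.9e-12), a low level in both groups. CXCL16, the ligand of CXCR6, rose from 22.2, 17.9 and 18.7 to 38.1, 39.1 and 37.1 CPM (0.96). CCL24, an eosinophil attractant of alternatively activated macrophages, fell from 36.03, 36.1 and 37.6 to 2.39, 3.22 and 3.56 CPM (-3.58 on the log2 scale, SE 0.11, adjusted p = 1.4e-23). CCL22, another product of that state, fell by 0.56 and CXCL8, a neutrophil attractant, by 0.40. IL1B stood at 3.97, 4.64 and 4.28 CPM with and 3.10, 3.38 and 3.68 CPM without IFN-γ (0.34 on the log2 scale, SE 0.14, adjusted p = 0.041), and the call was lost with both other scalings, limma-voom, other filters and without any of 4 of the 6 libraries. CCL5 was at 0.23, and at -0.065 with library totals alone. TNF had 4 counts with and 10 without IFN-γ and was not called (adjusted p = 0.35).

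Guanylate-binding proteins are IFN-induced GTPases that coat vacuoles and bacteria. Of 10 tested members of the GTPase list, 9 were higher and 1 lower under every scaling, with a median of 5.38. GBP5 (chromosome 1, 89258950 to 89272804) was at 3681, 3751 and 3635 CPM with IFN-γ and at 7.56, 7.84 and 8.91 CPM without it (8.83 on the log2 scale, SE 0.06, adjusted p = 7.6e-41), a 454-fold increase. GBP1 followed at 3192, 3346 and 3212 and 6.98, 7.21 and 8.39 CPM (8.75 on the log2 scale, SE 0.06, adjusted p = 9.5e-41). GBP4 was at 2705, 2770.0 and 2779 and 30.6, 31.3 and 31.5 CPM (6.47), and GBP2 at 2181, 2233 and 2197 and 44.9, 42.2 and 45.1 CPM (5.64). The treated and untreated libraries of all 4 genes were far apart. GBP7 (6.51), GBP6 (4.01) and GBP3 (3.10) rose, to 30.7, 2.57 and 327 CPM, and the pseudogene GBP1P1 was at 9.22. GBP paralogs and that pseudogene are near-identical in parts, so the division of reads among them is uncertain. IRGQ, a quasi-GTPase of the same wider family, fell by 0.27.

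The APOL family, secreted and intracellular apolipoproteins L that act on membranes of parasites and bacteria, rose in all 5 members tested. APOL4 was at 475, 475 and 464 CPM with IFN-γ and at 0.252, 0.255 and 0.194 CPM without it (10.95 on the log2 scale, SE 0.08, adjusted p = 3.2e-40). APOL1, the trypanosome-lysing factor, was at 508, 518 and 504 and 31.5, 31.9 and 30.9 CPM (4.02), and APOL3 at 132, 134 and 145 and 9.72, 8.42 and 9.197 CPM (3.91). APOL4 thus rose from near the counting floor, the others from a measurable level. The PARP and SP100 families of antiviral mono-ADP-ribosyltransferases and nuclear body proteins rose in 12 of 12 members, with a median of 1.63. PARP14 was at 1970.0, 2048 and 2059 CPM against 114, 123 and 114 (4.11), its partner PARP9 rose by 3.69 and SP110 by 2.93. These counts were the same under both other scalings.

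Of 42 tested effectors of the IFN-γ response, 41 were higher and none lower under every scaling (median 3.76), and APOBEC3A was not called. The list contains genes named elsewhere as well. IDO1, which degrades tryptophan, had 617 counts with and 0 without IFN-γ, at least 246-fold higher, at 6.40, 9.73 and 8.41 CPM. WARS1, the tryptophanyl-tRNA synthetase, was at 7121, 7261 and 7013 CPM with IFN-γ and at 392.1, 394 and 399 CPM without it (4.17 on the log2 scale, SE 0.04, adjusted p = 7.0e-39). GCH1, the first enzyme of tetrahydrobiopterin synthesis, rose from 0.216, 0.829 and 0.581 to 82.5, 85.8 and 90.99 CPM (7.27), and ACOD1, which makes itaconate, had 88 counts with and 0 without IFN-γ, at least 35.1-fold higher. QPRT, an enzyme on the route from tryptophan towards NAD, went the other way, from 80.7, 77.1 and 76.2 to 26.1, 29.8 and 28.6 CPM (-1.47 on the log2 scale, SE 0.06, adjusted p = 5.4e-21). Over the list of tryptophan and related catabolism, 12 of 17 were higher and 3 lower (12 and 3, and 12 and 5, with the other scalings). ETV7, a transcriptional repressor, rose from 0.144, 0.446 and 0.0645 to 141, 143 and 133 CPM (9.26), and HAPLN3, a hyaluronan link protein gene, from 0, 0.255 and 0.323 to 154, 159.7 and 153 CPM (9.57).

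Ligands that restrain or stimulate T cells were mostly raised: 12 of 20 were higher and 3 lower (11 and 4 with upper-quartile scaling, 10 and 6 with library totals alone). CD274, which encodes PD-L1, was at 428, 440.3 and 441 CPM with IFN-γ and at 1.66, 1.75 and 1.87 CPM without it (7.95 on the log2 scale, SE 0.07, adjusted p = 1.2e-38), a 247-fold increase. PDCD1LG2, the gene of PD-L2, was at 62.2, 61.4 and 66.9 and 5.62, 5.48 and 5.91 CPM (3.48). CD40, the receptor for T-cell help, was at 134, 140.2 and 134 and 10.98, 12.1 and 10.4 CPM (3.61). TNFSF14 (-1.73) and ICOSLG (-1.30) fell. In the cell death list 21 of 26 were higher and 2 lower (18 and 2, and 17 and 5, with the other scalings). TNFSF10, the death ligand TRAIL, rose from 5.76, 4.59 and 4.58 to 209, 216 and 209 CPM (5.42), the death receptor gene FAS from 2.02, 2.14 and 2.13 to 40.7, 45.3 and 44.1 CPM (4.37), and CFLAR, an inhibitor of caspase-8, fell by 0.21.

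Antigen presentation through MHC class I rose as far as it was counted. Of 19 tested members 18 were higher and none lower (15 and 1 with library totals alone), with a median of 1.53. TAP1, a chain of the peptide transporter, was at 1832, 1312 and 938 CPM with IFN-γ and at 73.9, 72.1 and 74.03 CPM without it (4.21 on the log2 scale, SE 0.16, adjusted p = 1.9e-21); the treated libraries were spread widely but all above the untreated ones. NLRC5, the class I transactivator, was at 538, 519.5 and 559 and 103, 109.8 and 105 CPM (2.35). B2M, the class I light chain, was at 2473, 2568 and 2439 and 1497, 1405 and 1326 CPM (0.82). HLA-E rose by 1.53. HLA-B had 74 and 33 counts, HLA-C 8 and 5, HLA-G 3 and 0 and TAP2 1 and 0 over the libraries with and without IFN-γ, so these core genes were almost uncounted, and the reason was not tested. In the window of chromosome 6 from 28 to 34 Mb the median SD of log2 CPM within a group was 0.117 over 79 genes, against 0.0654 over 10947 other genes.

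All 21 proteasome and immunoproteasome genes were higher (18, and 18 with 3 lower, under upper-quartile scaling and library totals), with a median of 0.83. PSME2, a subunit of the IFN-γ-inducible activator PA28, was at 429, 459.9 and 434 CPM with IFN-γ and at 60.04, 54.9 and 58.1 CPM without it (2.94). The immunoproteasome subunits PSMB9 and PSMB10 were at 2.22 and 2.16, and PSMB8 at 1.48. The constitutive subunits that they replace, PSMB6, PSMB7 and PSMB5, were at 0.83, 0.40 and 0.15, and PSMB5 turned to -0.143 with library totals alone. The 3 inducible subunits had the larger values.

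MHC class II genes, which present peptides from endosomes to CD4 T cells, mostly rose. Of 19 tested members 17 were higher and 1 lower under every scaling. The median was 4.59, and 3.80 with 2 members that had 0 counts without IFN-γ (HLA-DQA2 and HLA-DOA) set at their bound. CIITA, the class II transactivator, went from 2.16, 1.66 and 1.03 to 194, 191 and 194 CPM (6.91 on the log2 scale, SE 0.10, adjusted p = 4.6e-33). CD74, the invariant chain, was at 4391, 4386 and 4242 CPM with IFN-γ and at 327, 311 and 298 CPM without it (3.80). HLA-DQA1 was at 248, 257 and 251 and 0.0720, 0.319 and 0.226 CPM (10.19 on the log2 scale, SE 0.10, adjusted p = 5.3e-37), and HLA-DQB1 at 389, 390.2 and 383 and 3.56, 2.65 and 2.71 CPM (7.03). HLA-DPA1 rose by 8.49 and HLA-DRB1 by 4.96. HLA class II copies are alike in sequence, and the division of reads among them is uncertain. HLA-DRA, an abundant class II gene of macrophages, had 15 counts with and 92 without IFN-γ (-2.35, adjusted p = 0.039). Its groups overlapped, the call was lost with DESeq2, limma-voom and without 5 of the 6 libraries taken in turn, and the reason for its few counts was not tested.

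Genes classed as type I interferon-stimulated, antiviral genes that respond to STAT2 and IRF9, were higher in 50 of 50 cases (49 with both other scalings, with 1 lower under library totals alone), with a median of 3.09. IFI44L was at 362, 385 and 412 CPM with IFN-γ and at 0.936, 1.02 and 0.936 CPM without it (8.64 on the log2 scale, SE 0.10, adjusted p = 6.4e-36). RSAD2, the antiviral enzyme viperin, was at 476, 497 and 482 and 2.34, 2.81 and 1.58 CPM (7.75). IFIT2, which limits viral translation, was at 714, 758 and 720.2 and 5.18, 4.78 and 3.97 CPM (7.30). The groups of these 3 genes lay more than 100 CPM apart at every library. MX1, a GTPase that blocks viral nucleocapsids, rose by 5.66, IFIT1 by 5.37 and ISG15, a ubiquitin-like modifier, by 3.82. TRIM14 had the smallest value of the list (0.19), and it turned to -0.105 with library totals alone.

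**Figure D3:**
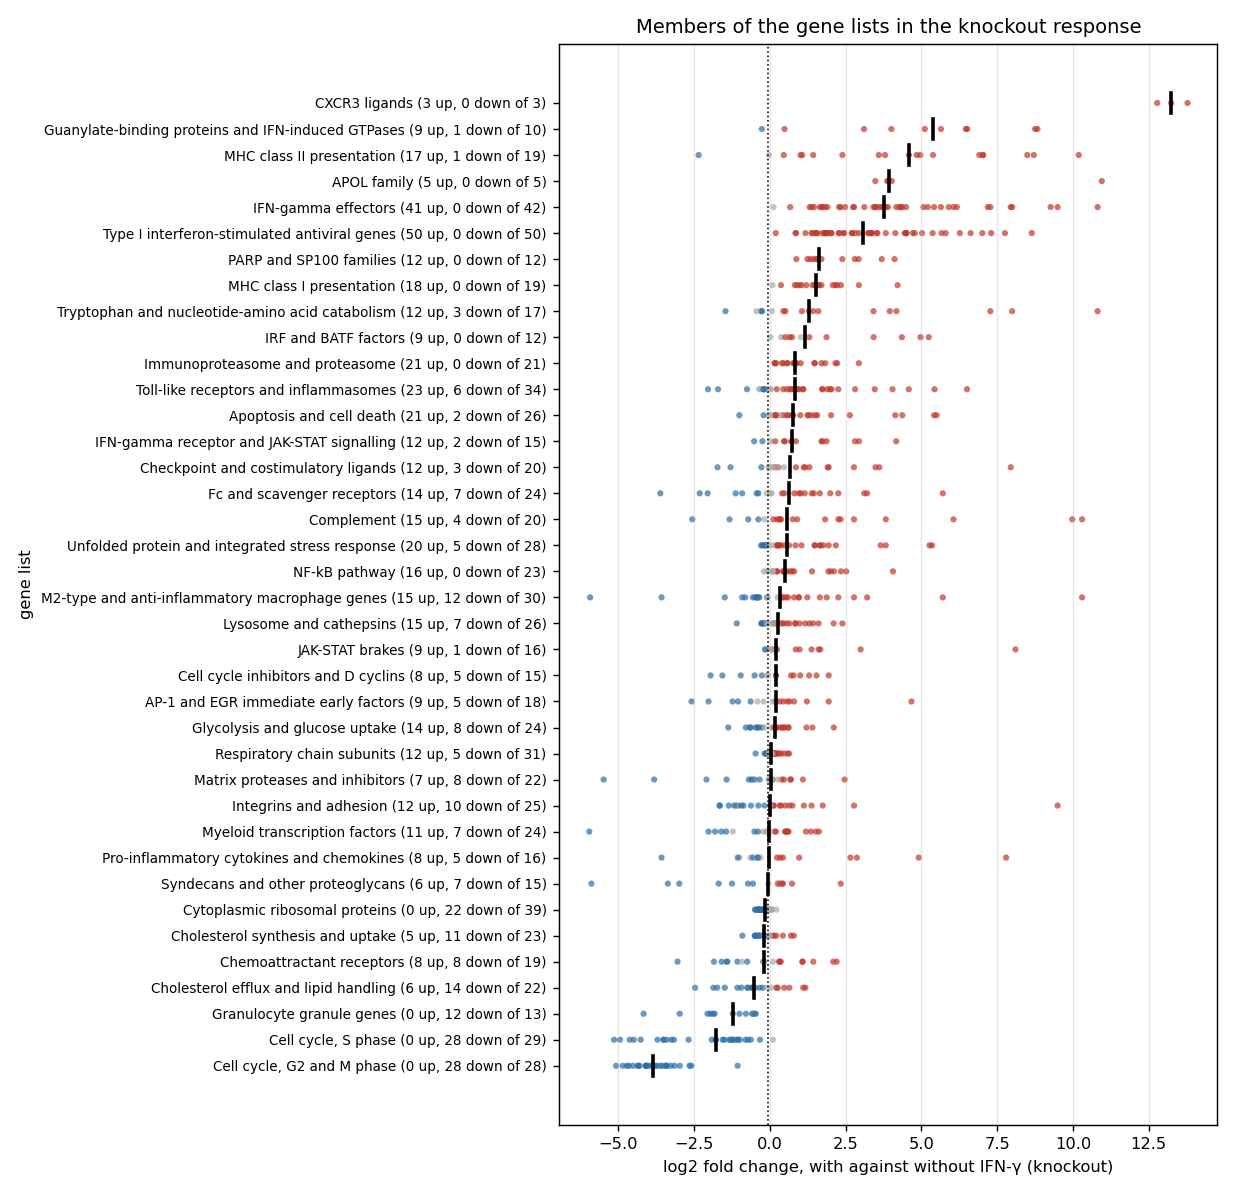
Log2 fold change with against without IFN-γ in the knockout (x axis) of every tested member of 38 gene lists (y axis, with the numbers called up and down), red for higher, blue for lower and grey for not called. Black bars are list medians and the dotted line is the median of all genes tested, -0.05; interferon lists stand at the top, and granule, S phase and G2 and M phase genes at the bottom.

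NF-kB pathway genes rose in 16 of 23 cases with none lower (14 and 2, and 13 and 5, with the other scalings), with a median of 0.49. SOD2, the mitochondrial superoxide dismutase, was at 1920.0, 1983 and 2027 CPM with IFN-γ and at 118, 115 and 122 CPM without it (4.06 on the log2 scale, SE 0.04, adjusted p = 5.8e-37). TNFAIP2, an NF-kB target of myeloid cells, was at 639, 619 and 640.4 and 128, 124 and 122 CPM (2.34), and BCL3, a nuclear IkB protein, at 46.4, 47.9 and 45.4 and 9.25, 11.1 and 11.8 CPM (2.11). AP-1 and EGR immediate early genes were divided, 9 higher and 5 lower of 18 (8 and 6, and 6 and 6, with the other scalings). DUSP5, a nuclear phosphatase of ERK, rose from 2.59, 1.63 and 2.90 to 55.6, 62.95 and 62.4 CPM (4.67 on the log2 scale, SE 0.12, adjusted p = 1.3e-25). ATF3, a stress-induced factor, rose from 35.6, 34.05 and 34.2 to 135, 133 and 131 CPM (1.94) and JUNB, an AP-1 subunit, by 1.22. DUSP4, another phosphatase of ERK, fell from 17.5, 18.2 and 16.04 to 2.92, 3.01 and 2.68 CPM (-2.59), MYC, a driver of growth, from 15.01, 14.3 and 15.3 to 3.53, 3.50 and 3.90 CPM (-2.03) and FOS by 1.23.

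Among receptors for microbial products and inflammasome genes, IFN-γ raised 23 of 34 and lowered 6 (22 and 6, and 22 and 10, with the other scalings). AIM2, a sensor of cytosolic DNA, was at 312, 331 and 315 CPM with IFN-γ and at 3.13, 3.89 and 3.48 CPM without it (6.50 on the log2 scale, SE 0.07, adjusted p = 4.3e-36). TLR7, an endosomal sensor of single-stranded RNA, was at 96.2, 106 and 105 and 6.55, 6.95 and 5.10 CPM (4.04), and CASP1, the inflammasome protease, rose by 1.90. IRAK3, a brake on Toll-like receptor signalling, fell from 65.4, 66.9 and 69.7 to 18.4, 21.1 and 22.02 CPM (-1.72 on the log2 scale, SE 0.06, adjusted p = 9.1e-22). Fc and scavenger receptors had 14 of 24 higher and 7 lower (13 and 7, and 12 and 9). FCGR1A, the high-affinity IgG receptor, was at 415, 416 and 411 and 47.6, 48.6 and 47.2 CPM (3.11), with a near-identical copy in the genome. CLEC10A, a galactose-type lectin, rose from 0.216, 0.383 and 0.516 to 21.3, 19.3 and 19.04 CPM (5.70) and MSR1, scavenger receptor A, from 6.55, 6.54 and 6.97 to 68.6, 60.1 and 56.7 CPM (3.21). OLR1, a receptor for oxidised LDL, fell by 2.06, SCARB1, a receptor for HDL, by 1.13 and MERTK, which takes up apoptotic cells, by 0.92.

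Chemoattractant receptors were divided evenly, 8 higher and 8 lower of 19 (5 and 8 with library totals alone). The formyl peptide receptors FPR1 and FPR2 rose from 9.79, 9.88 and 9.10 to 41.5, 41.3 and 39.6 CPM (2.09) and from 6.33, 7.08 and 6.45 to 29.8, 32.6 and 29.2 CPM (2.20). CXCR2, the CXCL8 receptor, fell from 52.1, 48.2 and 49.9 to 15.8, 13.8 and 12.1 CPM (-1.85) and CXCR4, the CXCL12 receptor, from 110.1, 109 and 112 to 37.6, 36.6 and 35.2 CPM (-1.59). Complement genes had 15 of 20 higher and 4 lower (13 and 5, and 10 and 6), against 29.2% and 31.8% of all genes tested. C1QB, a chain of the first component, was at 92.9, 91.3 and 84.2 CPM with IFN-γ and at 0.0720, 0.0638 and 0.0645 CPM without it (10.30 on the log2 scale, SE 0.13, adjusted p = 3.1e-34). The inhibitor SERPING1 was at 1024, 1035 and 997 and 16.3, 14.1 and 15.6 CPM (6.06). Genes of alternatively activated macrophages had 15 of 30 higher and 12 lower (14 and 14 with library totals alone), with a median of 0.33. F13A1, a transglutaminase of that state, fell from 4.75, 5.55 and 5.10 to 0.0810, 0 and 0.153 CPM (-5.93). C1QB (10.30), CLEC10A (5.70) and MSR1 (3.21), named above, are on the same list and rose, so the list had no single direction.

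VCAM1, an adhesion molecule best known from endothelium, was at 58.7, 69.5 and 73.1 CPM with IFN-γ and at 0.0720, 0.0638 and 0.129 CPM without it (9.49 on the log2 scale, SE 0.21, adjusted p = 1.1e-27). ICAM1, the ligand of LFA-1, was at 558, 536 and 554 and 82.5, 79.8 and 78.6 CPM (2.78) and the integrin chain ITGB7 at 1289, 1273 and 1223 and 505, 488 and 469 CPM (1.37). The integrin chain ITGA6 (-1.66) and the tetraspanin CD9 (-1.66) fell. Over the adhesion list 12 of 25 were higher and 10 lower (10 and 12, and 8 and 14). THBD, the anticoagulant thrombomodulin, fell from 164, 166 and 167 to 12.3, 11.3 and 11.6 CPM (-3.82 on the log2 scale, SE 0.06, adjusted p = 5.8e-32), while F3, the clotting initiator tissue factor, rose from 1.15, 1.08 and 0.774 to 6.16, 4.97 and 5.47 CPM (2.46). TIMP3, a matrix-bound protease inhibitor, fell by 2.10, and over 22 matrix proteases and inhibitors 7 were higher and 8 lower (6 and 12, and 5 and 15), shares near the 29.2% and 31.8% called over all genes. Of 15 proteoglycan genes 6 were higher and 7 lower (3 and 8 with library totals alone). Besides SDC3, the glypican GPC4 rose from 100.1, 102 and 105 to 169, 174 and 166 CPM (0.73) and SDC4 was at 0.39, a call lost with library totals alone. VCAN (-2.99), HSPG2 (-1.25) and SDC2 (-0.56) fell, and SDC1 had 0 counts with and 24 without IFN-γ, at least 6.69-fold lower.

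The most abundant gains and losses, in CPM per kilobase of exon, were mostly of genes with modest folds, with CD74, WARS1, CTSZ and LYZ excepted. The 5 largest gains were those of FTL, the ferritin light chain (3681 without and 5105 with IFN-γ), TMSB10, an actin-binding peptide (929.5 and 2310.0), CD74 (98.1 and 1363), CTSZ, a lysosomal carboxypeptidase (375 and 1610.0), and WARS1 (62.1 and 1122). The 5 largest losses were those of S100A9, a subunit of calprotectin (1418 and 950.2), LYZ, lysozyme (508 and 130.3), APOE (769 and 549), TREM2, a lipid-sensing receptor (723 and 544), and GPNMB, a glycoprotein of lipid-laden macrophages (401 and 228). All 10 genes were called, with log2 fold changes from -1.96 for LYZ to 4.17 for WARS1. Lysosome and cathepsin genes had 15 of 26 higher and 7 lower (13 and 9, and 12 and 12). The proteases LGMN and CTSZ (2.39, 2.10) and the cholesterol transporter of lysosomes NPC1 (1.60) rose most.

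Lipid handling genes leaned downward, 14 lower and 6 higher of 22 (15 and 5, and 16 and 4), with a median of -0.53. PLIN2, a coat protein of lipid droplets, was at 319, 309 and 298 CPM with IFN-γ and at 1046, 992 and 1062 CPM without it (-1.74 on the log2 scale, SE 0.04, adjusted p = 2.1e-27). LPL, lipoprotein lipase, was at 22.9, 22.4 and 20.3 and 78.1, 78.4 and 82.5 CPM (-1.87) and FABP4, a fatty acid carrier, at 4.54, 3.42 and 3.82 and 22.2, 20.2 and 22.9 CPM (-2.47). SREBF1, a regulator of fatty acid synthesis, rose by 1.17. Cholesterol synthesis and uptake had 11 of 23 lower and 5 higher (14 and 3, and 19 and 2), with INSIG1, a sterol-dependent brake, at 0.79. Glycolysis genes had 14 higher and 8 lower of 24, but 8 and 13 with library totals alone. SLC2A3, a glucose transporter, rose from 21.5, 23.5 and 23.01 to 95.1, 97.04 and 101 CPM (2.11) and HK2, a hexokinase, by 1.21, while PFKFB3, an activator of phosphofructokinase, fell by 1.38. Respiratory chain subunits had 12 of 31 higher and 5 lower with TMM and 3 and 24 with library totals alone, so no direction is given for them. Of 39 cytoplasmic ribosomal protein genes none was higher and 22 were lower, with a small shift (median -0.15), and 35 and 38 were lower with the other scalings.

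Several genes of the integrated stress response to amino acid shortage rose by large factors. Of 28 members of the stress list 20 were higher and 5 lower (19 and 7, and 15 and 8), with a median of 0.55. PSAT1, of serine synthesis, was at 378, 387 and 381 CPM with IFN-γ and at 8.78, 10.1 and 9.13 CPM without it (5.35 on the log2 scale, SE 0.07, adjusted p = 1.1e-34). ASNS, asparagine synthetase, was at 199, 214 and 202 and 4.82, 5.17 and 5.94 CPM (5.27), and CHAC1, which degrades glutathione, at 62.9, 66.5 and 64.1 and 4.32, 4.66 and 4.68 CPM (3.82). All 3 are known targets of the factor ATF4, whose transcript was at 1.49. PHGDH, the first enzyme of serine synthesis, rose by 3.65 and SESN2, a leucine sensor, by 2.17. The endoplasmic reticulum chaperones of the same list had smaller values, with HSPA5 at 0.35 and HSP90B1 at -0.13.

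Genes of the dividing cell fell almost without exception. Of 28 G2 and M phase genes all 28 were lower, with a median of -3.86, and of 29 S phase genes 28 were lower, with a median of -1.78, under TMM and upper-quartile scaling. The exception, SLBP, a histone mRNA-binding protein, stood at 0.10 (adjusted p = 0.1) and was called lower with library totals alone. MKI67, which encodes the proliferation marker Ki-67, was at 7.46, 8.88 and 9.10 CPM with IFN-γ and at 218, 233 and 223 CPM without it (-4.73 on the log2 scale, SE 0.08, adjusted p = 5.9e-31). The mitotic kinesins KIF20A and KIF23 were at 1.54, 0.733 and 1.45 against 36.7, 36.5 and 35.8 CPM (-4.86) and at 0.810, 0.570 and 0.459 against 19.1, 22.2 and 20.9 CPM (-5.08). These bulk libraries cannot tell fewer cells of a type, such as cycling cells, from less RNA per cell.

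Genes of DNA synthesis fell to low levels. RRM2, a subunit of ribonucleotide reductase, was at 1.38, 1.14 and 1.15 CPM with IFN-γ and at 38.2, 38.2 and 37.01 CPM without it (-4.95 on the log2 scale, SE 0.13, adjusted p = 1.2e-25). TYMS, thymidylate synthase, was at 1.05, 0.774 and 1.11 and 25.4, 24.9 and 22.8 CPM (-4.63), and MCM10, a replication initiation factor, at 0.405, 0.163 and 0.153 and 8.86, 7.46 and 9.49 CPM (-5.14). The transcription factors MYBL2 and E2F8 of the same phases were at 1.86, 2.16 and 1.38 against 67.1, 63.5 and 61.6 CPM (-5.16) and at 0.162, 0.163 and 0.191 against 9.39, 9.15 and 10.2 CPM (-5.76). NEIL3, a DNA repair glycosylase (-5.89), and CDCA7, a chromatin protein of S phase (-5.63), were also among the 12 largest falls. The replicative helicase fell less, with MCM2 at -0.73 and MCM6 at -0.33. Among cell cycle inhibitors and D cyclins, 8 of 15 were higher and 5 lower (6 and 7, and 6 and 9). CDKN1A, the p21 inhibitor, was at 667, 647 and 647 and 330.2, 326 and 324 CPM (1.00), GADD45B, a stress-induced growth arrest gene, at 1.94 and RB1 at 0.78. GADD45A fell by 1.96.

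MYB and MS4A3 were among the largest falls named by size. MYB, a transcription factor of haematopoietic progenitors (chromosome 6, 135181315 to 135219173), was at 2.03, 1.91 and 2.14 CPM with IFN-γ and at 127, 122 and 131 CPM without it (-5.96 on the log2 scale, SE 0.10, adjusted p = 6.5e-31), a 62.3-fold fall. MS4A3, a marker of granulocyte and monocyte progenitors, had 2 counts with and 497 without IFN-γ, which is 208-fold (57.2 to 1721, exact 95% interval for counting error). Both treated counts lay in replicate 3 and can come from 1 fragment, since mates were counted separately. The interval may therefore be too narrow. HP, haptoglobin, was at 2.59, 3.58 and 2.75 and 106, 98.8 and 94.3 CPM (-5.07), with a related gene beside it. PLPPR3 (-6.87), a phospholipid phosphatase-related gene, and VIT (-6.29), a matrix protein gene, completed the falls named by size. Of 13 granule genes 12 were lower and none higher (13 with both other scalings), with a median of -1.23. LYZ was at 231, 229 and 229 and 911, 867 and 908 CPM (-1.96), and the neutrophil serine proteases PRTN3 and CTSG at 9.64, 7.90 and 7.65 against 37.2, 32.8 and 34.9 CPM (-2.06) and at 20.8, 20.9 and 16.2 against 72.8, 65.8 and 65.7 CPM (-1.82). GFI1, a transcriptional repressor, fell by 1.81, while KLF6, CEBPB and TFEC, factors of activated macrophages, rose by 1.62, 1.35 and 1.52. Over 24 myeloid transcription factors, 11 were higher and 7 lower (9 and 9, and 9 and 14). The share lower was near the 31.8% of all genes tested.

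Markers of other cell types varied in level. The granule genes above, which also mark granulocytes, summed to 1254 to 1365 CPM with and 2484 to 2664 CPM without IFN-γ, with none of 14 at 0. The 8 T cell markers summed to 15.3 to 23.8 CPM with IFN-γ and 2.16 to 3.70 CPM without it, of which CD7 held 17.5, 14.9 and 23.4 CPM with IFN-γ. Of the 2 tested, CD7 was higher and the other lower (-2.15). CD2 was at 0 in all 6 libraries and CD3D, CD3E and CD3G had at most 5 counts in a group. The 6 B cell markers summed to 10.3 to 12.2 and 12.8 to 15.2 CPM, with MS4A1 at 0, and the 6 NK cell markers to 4.07 to 4.47 and 5.62 to 6.06 CPM, with NCR1 at 0. Of 9 erythroid and megakaryocyte markers 7 were at 0, the haemoglobin genes among them, and the sum was 0.243 to 0.652 CPM with and 0.387 to 0.756 CPM without IFN-γ. The 8 epithelial markers summed to 180 to 193 and 39.8 to 41.9 CPM, nearly all from MUC1, a mucin (2.70), and CLDN7, a claudin (1.02), with KRT19 and KRT5 at 0. The 10 fibroblast and endothelial markers summed to 22.3 to 25.5 and 17.5 to 21.5 CPM, with LUM at 0. Of the 8 dendritic cell markers 5 were tested, with 2 higher and 2 lower. The 8 summed to 74.1 to 78.2 and 78.8 to 83.3 CPM, with none at 0. LAMP3, of mature dendritic cells, was among those that rose, from 0.144, 0.0638 and 0.0645 to 12.00, 11.6 and 14.7 CPM. The part of these sums in the responses above was not tested.

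Most of the knockout response was shared with the wild type. Of the 5005 genes higher in the knockout, 4083 were also higher in the wild type, which is 81.6% of the knockout's and 83.4% of the wild type's 4896, and 66 were lower there. Of the 5451 lower genes, 3866 were also lower, 70.9% of the knockout's and 81.0% of the wild type's 4770. The backgrounds in the wild type were 28.6% higher and 27.9% lower, 56.5% in all, and 7.41% and 8.81% at a change of at least 1. A test of the difference between the responses (an interaction term in the same fit) called 2647 genes, 15.5% of those tested, with the knockout's log2 change more positive in 1302 (7.61%) and more negative in 1345 (7.86%). At a difference of at least 1 these were 175 (1.02%) and 283 (1.65%).

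**Figure D4:**
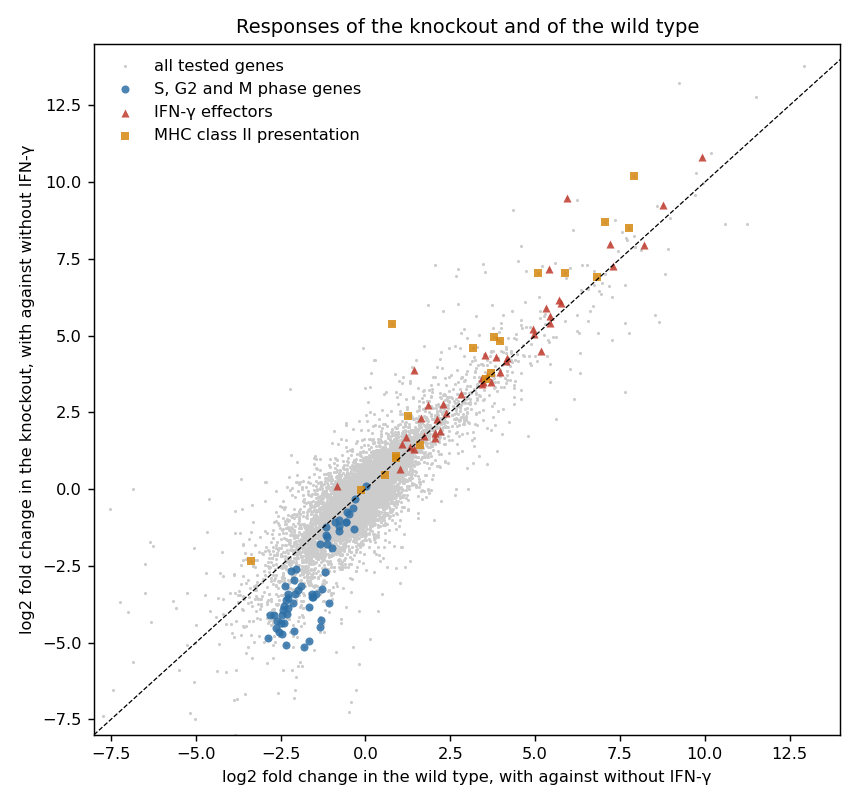
Log2 fold change with against without IFN-γ in the wild type (x axis) and in the knockout (y axis), grey for all 17119 genes tested, with 3 groups of lists in colour and the dashed line at equal responses. IFN-γ effectors lie on both sides of the line (13 of 42 with a more positive and 5 with a more negative difference by test), and S, G2 and M phase genes lie mostly below it, where the fall was larger in the knockout. Over all genes tested 7.61% had a more positive and 7.86% a more negative difference.

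Most cell cycle genes fell further in the knockout. Of the 28 G2 and M phase genes, 27 fell further in the knockout by the interaction test, with medians of -3.86 in the knockout and -2.34 in the wild type, and of the 29 S phase genes 20 did. Over all genes tested 7.86% had a more negative difference. MKI67 went from 225 to 8.48 CPM in the knockout and from 245 to 44.7 CPM in the wild type, a difference of responses of -2.27, SE 0.11, adjusted p = 1.1e-16. RRM2 went from 37.8 to 1.22 CPM in the knockout and from 37.7 to 11.9 CPM in the wild type, a difference of -3.29, SE 0.17, adjusted p = 2.5e-15. The starting levels of these 2 genes were close in the 2 genotypes, and the knockout was lower after IFN-γ. MYBL2 (-3.02), E2F8 (-3.76), MCM10 (-3.33), CDC45, a helicase loading factor (-3.15), NEIL3 (-3.47) and CDCA7 (-3.71) were among the 8 most negative differences. The last of the 8, IGF2BP1, an RNA-binding protein gene, had 0 counts with and 6 without IFN-γ in the knockout, so its fitted difference of -4.33 is no bound.

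Among genes with a more positive response, several started lower in the untreated knockout. BCAT1, a branched-chain amino acid transaminase, averaged 99.6 against 7.38 CPM with against without IFN-γ in the knockout and 128 against 70.5 CPM in the wild type, a difference of 2.89, SE 0.10, adjusted p = 1.2e-19. DUSP5 averaged 60.3 against 2.37 CPM and 49.1 against 14.8 CPM (2.94, SE 0.16, adjusted p = 8.3e-15). SLAMF7, a receptor of the SLAM family, averaged 176 against 11.8 CPM and 124 against 46.1 CPM (2.46, SE 0.09, adjusted p = 2.9e-19). In these 3 genes the untreated knockout was the lowest of the 4 groups. CSF1, which encodes macrophage colony-stimulating factor, turned in direction, with 60.6 against 21.3 CPM in the knockout and 108 against 214 CPM in the wild type (2.49, SE 0.12, adjusted p = 1.5e-16). VCAM1 (3.54), ANK2, an ankyrin (3.87), LAMP3 (2.36) and SHISA2 (2.38) had the other of the 8 most positive differences. Among pathway genes, 1 of the 15 receptor and JAK-STAT genes had a more positive and 5 a more negative response in the knockout, and of the 12 IRF and BATF factors 2 and 4 did. Over all genes tested 7.61% were more positive and 7.86% more negative, and 1 of 15 is near that share. The differences were 1.48 for BATF3, -0.71 for IRF8, -0.66 for BATF2, -0.47, SE 0.05, adjusted p = 7.2e-08 for IRF1 and -0.24, SE 0.07, adjusted p = 0.018 for JAK2. GBP1 (1.40), NLRC5 (-0.54) and IFI44L (-2.60) were also called, while WARS1 (0.04, adjusted p = 0.64) and GBP5 (-0.14, adjusted p = 0.34) were not called. In IRF1, JAK2, NLRC5 and IFI44L the knockout means were above the wild-type means in both treatments. With IFN-γ they were 1416 against 1212, 746 against 555, 539 against 380 and 387 against 285 CPM in that order. Without it they were 69.3 against 42.7, 107 against 67.4, 106 against 51.5 and 0.964 against 0.121 CPM. The negative differences of these genes thus do not stand for lower levels after IFN-γ in the knockout. For CXCL9, CXCL10 and CXCL11 the difference was not called (0.84, 1.26 and 3.99, with SE 1.32, 1.10 and 2.49). Their untreated groups had almost no counts.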

How the data were processed

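The authors deposited 1 table of raw read counts per gene for the 12 libraries. Per the file header it was made with featureCounts 2.0.3 over exons by gene, with primary alignments, paired-end mode, chimeric pairs left out and no strand option, so mates were counted separately and antisense genes are uncertain. Build hg38 and, for trimming, alignment and quality checks, the tools fastp 0.23.2, MultiQC 1.13, FastQC, Subread, BWA, STAR 2.7.10b and Picard 2.27.5 are listed per the submitters' processing notes; which aligner gave the counted alignments is not given in the sources used here. Per the labels' protocols, libraries were made from 1 ug of total RNA with a stranded mRNA kit.

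Counts of all 12 libraries were fitted together by group in edgeR 4.0.16 (R 4.3.3) after filterByExpr and TMM scaling, with quasi-likelihood tests and Benjamini-Hochberg adjustment over all genes tested. SE is the absolute log2 fold change divided by the square root of F. A difference of responses is the knockout minus the wild-type log2 fold change. The fit was tested on simulated data. Of 58051 rows, 56948 were named from the reference table and 487 from GENCODE 29. Levels are CPM, and levels per kilobase divide by the exon length in the table. Alternatives were DESeq2 1.42.0, limma-voom (limma 3.58.1), other scalings and filters, a replicate block, fits of only the compared libraries and fits without each library.

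Named genes were SDC3, the 12 largest rises and 12 largest falls (at least 5 CPM in the higher group, no overlap), the 5 largest gains and losses per kilobase, a panel, up to 3 rising and 3 falling members per list, genes near 0 in 1 group, and the 8 largest differences of responses each way. Other list members were chosen after their values were seen. The members and lists were chosen with earlier results of these data known. Some genes that the rule names are not reported here.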

Additional observations from a re-analysis of the deposited data

Results flagged for a closer look

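Each gene below is named because the knockout and wild-type responses to IFN-γ were at least 1 apart (log2) in the interaction test (edgeR's quasi-likelihood test, adjusted p under the threshold of 0.05). The value in brackets is the knockout log2 fold change minus that of the wild type, and the background of such differences among all genes tested is 1.02% positive and 1.65% negative. No explanation was tested.

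More negative in the knockout were the cell division and DNA synthesis genes MKI67 (-2.27), KIF20A (-1.99), KIF23 (-2.73), RRM2 (-3.29), TYMS (-2.52), MCM10 (-3.33), MYBL2 (-3.02), E2F8 (-3.76), CDC45 (-3.15), NEIL3 (-3.47) and CDCA7 (-3.71). The same sign was found for the progenitor genes MS4A3 (-2.45) and MYB (-1.84) and for PLPPR3 (-2.995), VIT (-1.23) and IGF2BP1 (-4.33). It was found too for the antiviral gene IFI44L (-2.60), which rose in both genotypes, and for the cytokine genes IL1B (-1.24) and TNF (-3.02), of which TNF had too few counts in the knockout for a firm value. IFI44L was near 0 in the untreated wild type.

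More positive in the knockout were the targeted gene SDC3 (1.005), the GTPase gene GBP1 (1.40) and the class II genes HLA-DQA1 (2.27), HLA-DQB1 (1.94) and HLA-DRB1 (1.17), whose reads can be divided among near-identical copies. Adhesion, surface receptor and cytokine genes were VCAM1 (3.54), SLAMF7 (2.46), MSR1 (1.52), CXCR4 (1.12), CSF1 (2.49) and LAMP3 (2.36). Of these, CXCR4 fell in both genotypes, and VCAM1 and LAMP3 were near 0 in the untreated knockout. Transcription factors and a signalling phosphatase were BATF3 (1.48), ATF3 (2.06), KLF6 (1.24) and DUSP5 (2.94). Granule protease genes were CTSG (1.77) and PRTN3 (2.16), which fell in the knockout. Metabolic genes were BCAT1 (2.89), PHGDH (1.18), LPL (1.07) and FABP4 (1.20), and the remaining ones were TIMP3 (1.45), F3 (1.39), LGMN (1.13), ANK2 (3.87) and SHISA2 (2.38). LPL, FABP4 and TIMP3 fell in both genotypes, and less in the knockout. A more positive difference does not stand for a higher level after IFN-γ. With IFN-γ, HLA-DQA1 averaged 252 CPM in the knockout against 584 CPM in the wild type. HLA-DQB1 (387 against 640 CPM), SDC3 (239 against 580 CPM), MSR1 (61.8 against 138 CPM) and LGMN (12.2 against 59.3 CPM) were also lower in the knockout. GBP1 (3250 against 2450 CPM) and VCAM1 (67.1 against 28.1 CPM) were higher. HLA-DQA1 was near 0 in the untreated knockout.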

How the results depend on the processing

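With library totals alone, the knockout had 2787 higher and 9141 lower genes and the wild type 2767 and 8260, and the cause was not tested. With a change of at least 1 required, the counts were 1455 and 1872 in the knockout, 1268 and 1508 in the wild type, and 175 and 283 for the difference of responses, since fewer genes can pass. DESeq2 called 5068 higher and 5147 lower, and limma-voom 5018 and 5441. Leaving out 1 library at a time gave 4762 to 5011 higher and 4775 to 5111 lower genes in the knockout.

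Signs turned with library totals alone for CCL5 (-0.065), JAK1 (-0.284), IRF5 (-0.288), PSMB5 (-0.143), SLBP (-0.194) and TRIM14 (-0.105), with upper-quartile scaling for JAK1 (-0.105), IRF5 (-0.109) and SLBP (-0.015), and with a minimum of 5 CPM in 3 libraries for JAK1 (-0.034) and IRF5 (-0.038). The cause was not tested. Over 191 genes and 15 settings, 2814 values kept their direction and their side of the threshold, 31 lost the call, 3 gained it and 11 turned. The stress response list had 2 or 3 rather than 5 members lower without knockout replicate 2 or 3 of either treatment, and the respiratory chain list 2 or 3 rather than 5 without IFN-γ replicate 2 or 3 or untreated replicate 1 or 2.

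Replicate numbers did not pair the libraries: deviations of same-numbered knockout libraries correlated at 0.083, -0.052 and 0.035, and not every library correlated best with its own number. The fit with the replicate block called 4982 genes higher and 5393 lower in the knockout, 4863 and 4737 in the wild type, and 1275 and 1313 for the difference. HLA-B, HLA-C, TAP2, HLA-DRA, TNF and CD68 had few counts, which limits what can be said of them.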
